A study of Sus scrofa with 4 samples.

Results

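GADD45A, GADD45B, GADD45G, BTG1, BTG2 and TOB1 are growth-arrest genes, and their transcripts were followed here in cultured pig granulosa cells after interference with YTHDF2. The genes were taken by name from the deposited table, which held all 6 among its 20491 genes. The cells were follicle granulosa cells of Sus scrofa, which nurse the oocyte and make its follicle's steroids. The siYTHDF2 group consisted of 2 libraries from cells transfected to interfere with YTHDF2, and the control group of 2 libraries from cells given a transfection negative control. All 4 libraries came from transfected cells, and the labels give no strain, age, time after transfection or siRNA sequence. The series title concerns BDNF, but no BDNF treatment is named for any library. No label says that the libraries came from separate cultures or animals, so a p-value here reflects how far these libraries spread, and that spread may be purely technical.

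The GADD45 proteins are small, stress-induced proteins with no enzymatic activity of their own. In human and mouse cells they bind the kinase MAP3K4 and so start p38 and JNK signalling, and they also bind PCNA, p21 and the CDK1 and cyclin B1 complex at the G2 to M transition. The BTG and TOB proteins share an amino-terminal domain that binds the CNOT7 and CNOT8 deadenylases, by which they speed the shortening of mRNA poly(A) tails and restrain entry into S phase. YTHDF2 reads N6-methyladenosine in mRNA and brings the same CCR4-NOT deadenylase complex to the transcripts it binds.

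The total count was 47209177 and 54203550 in the siYTHDF2 libraries, and 53331003 and 54841851 in the control libraries. YTHDF2 itself had 1122 and 1279 counts with siYTHDF2, against 3660 and 3356 counts in the control, a log2 fold change of -1.49 (SE 0.09, edgeR adjusted p = 1.49e-05). The cell label was checked against marker genes. The granulosa markers summed to 3551 and 3689 CPM (counts scaled to library size with edgeR's TMM method) with siYTHDF2 and to 3680 and 3503 CPM in the control, with 3 of 17 tested called higher and 1 lower. GJA1 made up most of that sum, with 2106 and 2246 CPM with siYTHDF2, against 2515 and 2386 CPM in the control. SERPINE2 had 444 and 424 CPM with siYTHDF2, against 216 and 224 CPM in the control. The steady sum thus says little about single markers. FOXL2 lay at 4.35 to 6.38 CPM over the libraries and INHA at 2.92 to 6.49 CPM. FSHR, the FSH receptor, lay at 10.2 to 11.5 CPM over the libraries and CYP19A1, the aromatase, at 0 to 0.204 CPM. Markers of theca and stroma summed to 11819 and 11425 CPM with siYTHDF2, against 20504 and 21159 CPM in the control. Of their 10 tested genes, 7 were called lower and 1 higher. ACTA2, a contractile gene, was the largest part of that sum, with 6639 and 6286 CPM with siYTHDF2, against 12148 and 12801 CPM in the control. DES went the other way, with 239 and 206 CPM with siYTHDF2, against 52.2 and 58.6 CPM in the control. The theca-defining genes CYP17A1 and INSL3, and the stromal marker THY1, were not listed under these symbols among the deposited genes and so could not be read. The part of this marker shift in the results that follow was not tested. Fewer cells of a type and less RNA per cell cannot be told apart in such bulk libraries. Summed markers of endothelial cells stayed at or under 15.0 CPM in every library, those of leukocytes at or under 8.51 CPM and those of epithelium at or under 8.24 CPM. The oocyte markers summed to 128 and 141 CPM with siYTHDF2, against 219 and 211 CPM in the control. Nearly all of this was KIT, a receptor kinase, with 118 and 129 CPM with siYTHDF2, against 209 and 199 CPM in the control (edgeR adjusted p = 0.000189). The part of KIT in the results was likewise not tested.

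GADD45B and GADD45A were lower after interference with YTHDF2, and no other gene among the 6 passed the test. GADD45B fell by 52.0%, and GADD45A fell by 21.7%. BTG1 had a log2 fold change of -0.22, and GADD45G, BTG2 and TOB1 lay between 0.22 and 0.28 without passing. All 6 genes passed the filter on low counts, and each had at least 298 counts in every library. Differences were tested with edgeR's quasi-likelihood test over 15552 genes and called at a Benjamini-Hochberg adjusted p under 0.05. In the whole comparison 10.6% of genes were called lower and 9.05% higher, against 2 and 0 of the 6 growth-arrest genes. At an unadjusted p under 0.05, 3 of the 6 were lower and 0 higher, where 16.9% of all genes were lower and 16.1% higher, and DESeq2 and limma also called 0 of them higher. The median log2 fold change was 0.00 over the 6 genes and 0.00 over all genes tested.

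**Figure D1:**
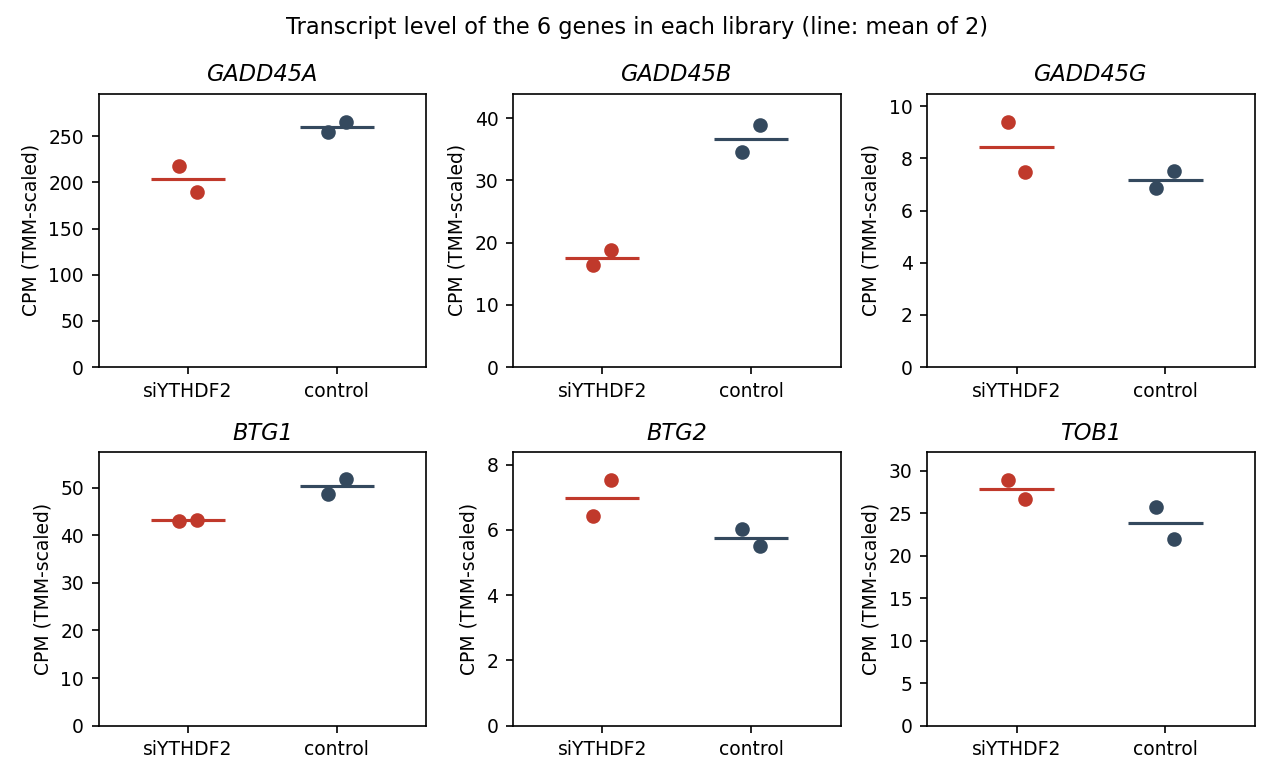
TMM-scaled CPM of GADD45A, GADD45B, GADD45G, BTG1, BTG2 and TOB1, with 1 point per library and a line at the mean of each group of 2. The siYTHDF2 points of GADD45B, at 16.4 and 18.7 CPM, lie far below the control points at 34.5 and 38.8 CPM, whereas the points of GADD45G overlap between the groups.

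GADD45B (ENSSSCG00000022689) encodes the family member that is induced by TGF-beta and NF-kB signalling and that also binds the JNK kinase MAP2K7. It lies on chromosome 2 from 76107929 to 76111479, on the minus strand, as the deposited table gives it; no source used here names the build of these coordinates. Its level was 16.4 and 18.7 CPM in the siYTHDF2 libraries, against 34.5 and 38.8 CPM in the control libraries. Both siYTHDF2 libraries were low and both control libraries high, with a wide gap between the groups. The means were 17.6 ± 1.64 CPM with siYTHDF2 and 36.7 ± 3.08 CPM in the control (SD, n = 2 each). The log2 fold change was -1.06 (SE 0.11, 95% interval -1.32 to -0.80, edgeR adjusted p = 0.000349). Replicates differed by 14.1% with siYTHDF2 and by 12.6% in the control, much less than the difference between the groups. Among the 1644 genes called lower, GADD45B had the 298th largest decrease. The call held in all 15 other settings tried, with log2 fold changes from -1.16 to -0.83.

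GADD45A (ENSSSCG00000037066) is the DNA damage-inducible member of the family, known for its part in the G2 checkpoint. Its transcript maps to chromosome 6 from 144940697 to 144944089, on the minus strand. CPM values were 218 and 189 with siYTHDF2, against 255 and 266 in the control. The groups did not overlap, but the siYTHDF2 libraries differed from each other by 15.1%, whereas the control libraries differed by 4.21%. The means were 204 ± 20.2 CPM with siYTHDF2 and 260 ± 7.58 CPM in the control (SD, n = 2 each). This was a log2 fold change of -0.35 (SE 0.08, 95% interval -0.53 to -0.18, edgeR adjusted p = 0.0134). GADD45A had the 1337th largest of the 1644 decreases, so that most genes called lower fell further. The call rested in part on siYTHDF2 replicate 2, the lower of that pair, since the log2 fold change without it was -0.26 (edgeR adjusted p = 0.0599). Without siYTHDF2 replicate 2 GADD45B was the only called gene of the 6. An lncRNA gene lies 1083 bases from GADD45A on the opposite strand and had 0 and 0 counts with siYTHDF2 and 16 and 0 in the control.

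GADD45G (ENSSSCG00000035249), a family member induced by cytokines, did not follow them. Its locus is on chromosome 14 from 1165982 to 1167529, on the plus strand. It had 9.41 and 7.47 CPM with siYTHDF2, against 6.87 and 7.51 CPM in the control. siYTHDF2 replicate 1 was the highest library, while siYTHDF2 replicate 2 lay within the control range. The log2 fold change of 0.23 (SE 0.17, 95% interval -0.16 to 0.62) did not pass (edgeR adjusted p = 0.409). In this fit that interval lay wholly above those of GADD45A and GADD45B, but only narrowly for GADD45A, whose interval ended at -0.18. DESeq2 gave larger SEs, 0.23 for GADD45G and 0.09 for GADD45A, so the separation from GADD45A depends on the fit. Relative to GADD45A, GADD45B was at a log2 CPM ratio of -3.73 and -3.34 with siYTHDF2, against -2.89 and -2.77 in the control. The ratio differed by -0.70 between the groups without overlap, and an exact two-sided permutation test over the libraries gave p = 0.333, the smallest it can give with 2 libraries per group.

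**Figure D2:**
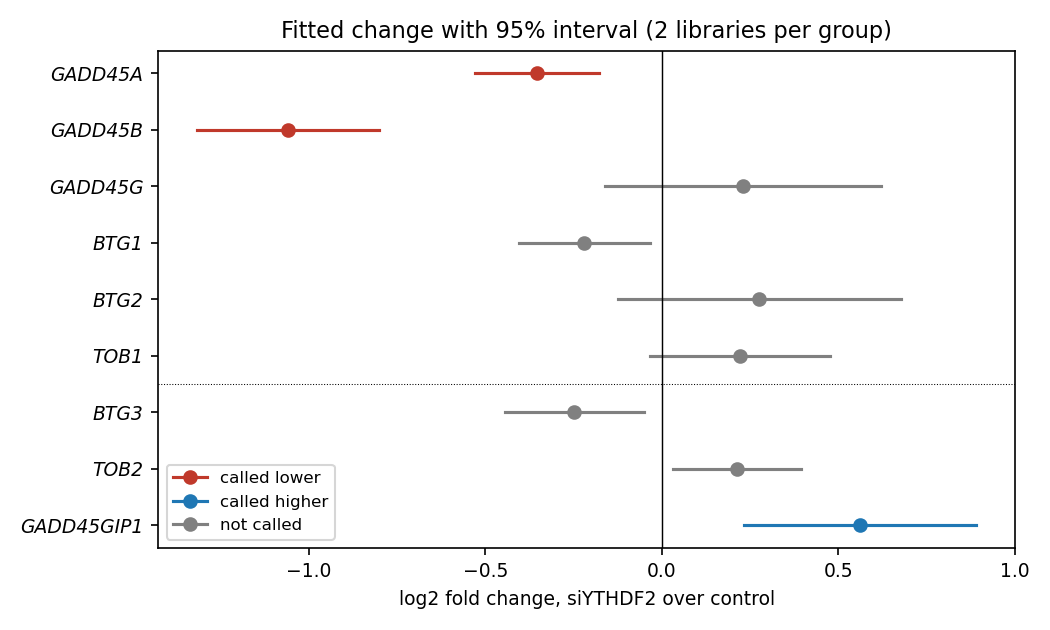
Fitted log2 fold change of siYTHDF2 over control with its 95% interval for the 6 genes and, under the dotted line, for BTG3, TOB2 and GADD45GIP1. Only the intervals of GADD45A, GADD45B and GADD45GIP1 belong to called genes, and those of BTG1, BTG3 and TOB2 lie on 1 side of 0 without an adjusted p under 0.05.

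Among the BTG and TOB genes, BTG1 (ENSSSCG00000035790), which is highly expressed in quiescent cells, was the one with lower values after interference. It lies on chromosome 5 from 90815202 to 90817142, on the plus strand, and had 43.1 and 43.2 CPM with siYTHDF2, against 48.7 and 51.8 CPM in the control. The siYTHDF2 libraries were within 0.359% of each other and both lay under the control libraries. The log2 fold change was -0.22 (SE 0.08, 95% interval -0.40 to -0.03), with an unadjusted p of 0.0247 and an edgeR adjusted p of 0.0931. It was therefore not called.

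BTG2 (ENSSSCG00000055218), an early response gene that promotes deadenylation, is given on chromosome 9 from 64031832 to 64035837, on the plus strand. CPM reached 6.43 and 7.52 with siYTHDF2, against 6.02 and 5.51 in the control. Both siYTHDF2 libraries stood above both controls, but the gap between the groups was smaller than that between the siYTHDF2 replicates. The log2 fold change was 0.28 (SE 0.18, 95% interval -0.13 to 0.68, edgeR adjusted p = 0.328). With only 298 to 415 counts per library, BTG2 had the widest interval of the 6 genes.

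TOB1 (ENSSSCG00000040773), which binds the deadenylase and poly(A)-binding protein at once, occupies chromosome 12 from 27116584 to 27117614, on the minus strand. The deposited table types this row as a pseudogene and gives it a span of 1031 bases, whereas RefSeq (Sscrofa11.1) lists TOB1 as protein-coding. Its values may therefore cover only part of the transcript. They were 28.9 and 26.7 CPM with siYTHDF2, against 25.7 and 22.0 CPM in the control. The siYTHDF2 libraries were again the higher ones, by less than the gap within the control pair. The log2 fold change was 0.22 (SE 0.11, 95% interval -0.03 to 0.48, edgeR adjusted p = 0.215). In all, GADD45A, GADD45B and BTG1 had both siYTHDF2 libraries below both controls, as had 30.0% of all genes tested. BTG2 and TOB1 had both above, as had 30.1%. With 2 libraries per group, such separation is common.

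The 4 genes without a call cannot be taken as unaffected. Their intervals reached a log2 fold change of 0.62 for GADD45G, 0.68 for BTG2, 0.48 for TOB1 and -0.40 for BTG1. The interval of BTG1, however, did not extend to the change of GADD45B.

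**Figure D3:**
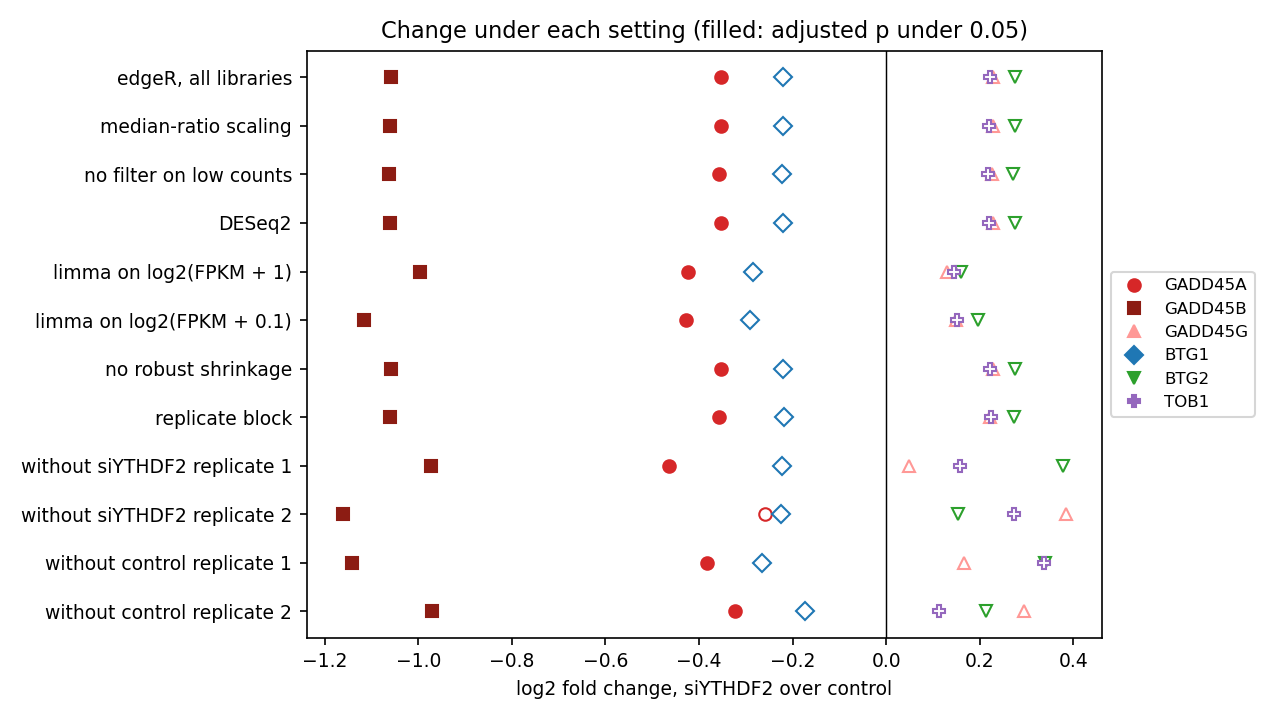
Log2 fold change of siYTHDF2 over control for the 6 genes under edgeR with all libraries and 11 other settings, where a filled symbol marks an adjusted p under 0.05. GADD45B is filled and leftmost in each row, and GADD45A is filled except without siYTHDF2 replicate 2.

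Levels were compared between genes on the deposited FPKM (fragments per kilobase of gene, scaled to library size), which allow for gene length. GADD45A was the most abundant of the 6, at 102 and 102 FPKM with siYTHDF2, against 134 and 141 FPKM in the control. This placed it, by its mean, above 97.9% of the genes tested. BTG1 followed at 35.2 and 40.9 FPKM with siYTHDF2 and 44.7 and 48.2 FPKM in the control, and TOB1 at 21.4 and 22.8 FPKM with siYTHDF2 and 21.3 and 18.5 FPKM in the control. The TOB1 level depends on its short gene model. BTG2 was the lowest in every library, at 3.31 and 4.49 FPKM with siYTHDF2 and 3.48 and 3.22 FPKM in the control.

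The order of the remaining pair changed between the groups. GADD45B stood at 4.45 and 5.88 FPKM with siYTHDF2, against 10.5 and 12.0 FPKM in the control. GADD45G stood at 6.64 and 6.10 FPKM with siYTHDF2, against 5.44 and 6.03 FPKM in the control. GADD45B thus had rank 5 of the 6 in both siYTHDF2 libraries and rank 4 in both control libraries. Within each siYTHDF2 library GADD45G stood above GADD45B and GADD45B above BTG2. In siYTHDF2 replicate 2 the GADD45G and GADD45B values of 6.10 and 5.88 FPKM were close. Across the pair GADD45B and BTG2 overlapped, at 4.45 FPKM in replicate 1 and 4.49 FPKM in replicate 2. That overlap is between libraries of unlike FPKM scale, since siYTHDF2 replicate 1 has the lower FPKM for a given CPM. Whether these neighbours differed was not tested. GADD45A, BTG1 and TOB1 stood apart from their neighbours in both groups.

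The small relative change of GADD45A was the large one in transcript amount. Its mean FPKM differed by -35.3 between siYTHDF2 and control, that of BTG1 by -8.39 and that of GADD45B by -6.07. The GADD45 genes together had 113 and 114 FPKM with siYTHDF2, against 149 and 159 FPKM in the control. GADD45A made up 88.7% to 90.2% of that sum in every library. The share of GADD45B was 3.95% and 5.14% with siYTHDF2, against 7.02% and 7.53% in the control, and that of GADD45G was 5.89% and 5.33% with siYTHDF2, against 3.64% and 3.79% in the control. The BTG and TOB genes together had 59.8 and 68.2 FPKM with siYTHDF2, against 69.5 and 69.9 FPKM in the control, with BTG1 as the largest share throughout. One limit applies to comparisons of FPKM between libraries. In siYTHDF2 replicate 1 a given CPM corresponded to 0.872 times the FPKM of control replicate 1. This factor was 1.00 in siYTHDF2 replicate 2 and 1.02 in control replicate 2. The lower scale of siYTHDF2 replicate 1 enters the siYTHDF2 means and sums above. The order of BTG1 and GADD45B by FPKM difference is therefore not settled. The 59.8 FPKM sum of the BTG and TOB genes in that library cannot be read as a fall.

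**Figure D4:**
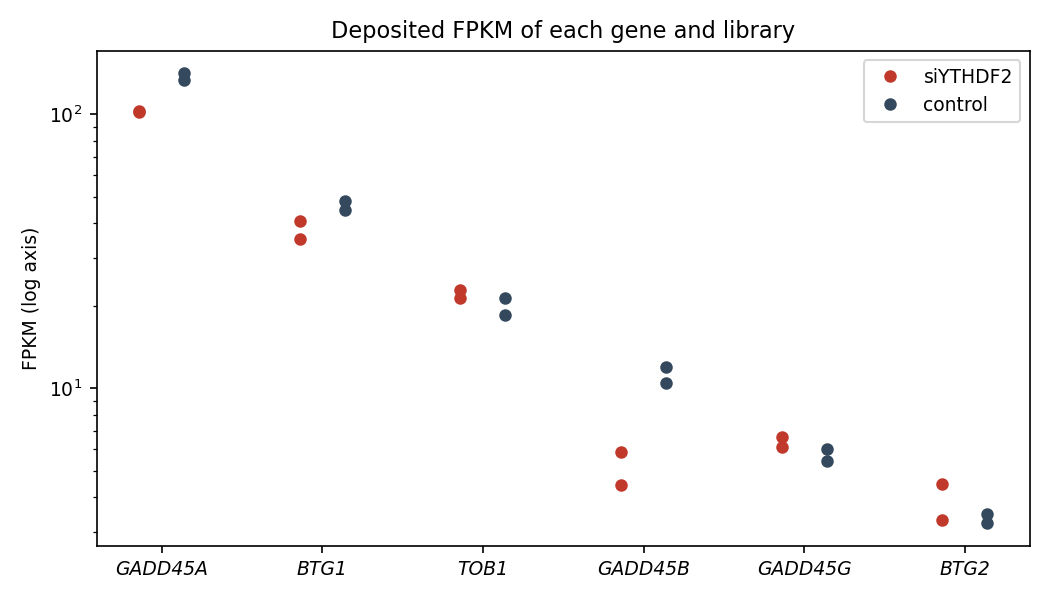
Deposited FPKM of the 6 genes on a log axis, ordered by their mean in the control, with 1 point per library. GADD45A lies at 102 to 141 FPKM, and GADD45B lies below GADD45G with siYTHDF2 and above it in the control.

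Of 3 tested genes, the relatives BTG3 and TOB2 and the GADD45-binding GADD45GIP1, 1 was called higher and 0 lower. The shares over all genes were 9.05% and 10.6%. At an unadjusted p under 0.05 in edgeR 2 were higher and 1 lower, beside 16.1% and 16.9% of all genes. DESeq2 called 1 higher and 0 lower. BTG3, an E2F-binding family member, had 63.0 and 59.8 CPM with siYTHDF2, against 67.7 and 78.1 CPM in the control (log2 fold change -0.25, SE 0.09, edgeR adjusted p = 0.0772). TOB2, the closest relative of TOB1, had 71.3 and 71.8 CPM with siYTHDF2, against 65.2 and 58.3 CPM in the control (log2 fold change 0.21, SE 0.08, edgeR adjusted p = 0.0957). Neither was called, although BTG3 passed when control replicate 1 was left out (edgeR adjusted p = 0.0237) and with no filter on low counts (edgeR adjusted p = 0.0490). BTG4, an oocyte gene, was listed at 0 in all libraries but siYTHDF2 replicate 1, where it had 9 counts, and was not tested. GADD45GIP1 encodes a mitochondrial ribosome protein that binds GADD45 proteins. It rose to 16.5 and 13.2 CPM with siYTHDF2, against 9.89 and 10.2 CPM in the control (log2 fold change 0.56, SE 0.15, edgeR adjusted p = 0.0260). In edgeR that call was lost without siYTHDF2 replicate 1 (adjusted p = 0.184) or control replicate 1 (adjusted p = 0.0636), and limma on log2(FPKM + 1) did not make it either (adjusted p = 0.0544).

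Partners of the BTG and TOB proteins were mostly not called. A list of 16 tested genes held CCR4-NOT subunits, the PAN2 and PAN3 deadenylase, poly(A)-binding proteins and PRMT1. Of these 2 were higher, 2 lower and 12 not called, with a median log2 fold change of 0.10. Among all genes tested, 9.05% were called higher and 10.6% lower. The higher ones were PRMT1 and PABPC4, a poly(A)-binding protein that rose by 0.24 (SE 0.07, edgeR adjusted p = 0.0362). The higher count was 1 without siYTHDF2 replicate 1, control replicate 1 or control replicate 2 and with the replicate number as a block, and the lower count was 1 without siYTHDF2 replicate 1 and 0 without control replicate 1. In limma on log2(FPKM + 1) both counts were 1. CNOT7, the deadenylase that these proteins bind, had 109 and 109 CPM with siYTHDF2, against 109 and 109 CPM in the control (log2 fold change 0.00, 95% interval -0.14 to 0.15). CNOT8, its paralogue, had a log2 fold change of 0.11 (SE 0.11, edgeR adjusted p = 0.570). Both are given as the direct partners and were chosen after their values were seen. PRMT1, an arginine methyltransferase that binds BTG1 and BTG2, rose to 276 and 248 CPM with siYTHDF2, against 182 and 196 CPM in the control (log2 fold change 0.47, SE 0.08, edgeR adjusted p = 0.00288). CNOT6, another deadenylase of the complex, fell by 0.55 on the log2 scale (SE 0.12, edgeR adjusted p = 0.0114). CNOT1, the scaffold of the complex, fell by 0.29 (SE 0.07, edgeR adjusted p = 0.0218). Over the 15 other settings the log2 fold change of CNOT6 ran from -0.70 to -0.38. Its call was lost without control replicate 1 and in limma on log2(FPKM + 1) with any library left out. That of CNOT1 was lost without siYTHDF2 replicate 1 (edgeR adjusted p = 0.142) or control replicate 1 (edgeR adjusted p = 0.0588), and limma on log2(FPKM + 1) gave an adjusted p of 0.0921.

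Partners of the GADD45 proteins and kinases of the p38 and JNK cascade were listed together, with 16 tested. Of these, 3 were higher, 1 lower and 12 not called, with a median log2 fold change of 0.05. The shares over all genes were 9.05% higher and 10.6% lower. Without siYTHDF2 replicate 2, edgeR called 5 of them higher, and in limma on log2(FPKM + 1) with any library left out 1 was higher and 0 lower. CDKN1A, which encodes p21, stood at 396 and 377 CPM with siYTHDF2, against 199 and 200 CPM in the control (log2 fold change 0.95, SE 0.06, edgeR adjusted p = 2.34e-05). Thus CDKN1A rose while GADD45A fell. MAP3K5, the stress kinase ASK1, rose to 11.0 and 11.2 CPM with siYTHDF2, against 5.26 and 5.40 CPM in the control (log2 fold change 1.06, SE 0.15, edgeR adjusted p = 0.00161). MAP3K4, the kinase that GADD45 proteins bind, was not called (log2 fold change 0.05, SE 0.09, edgeR adjusted p = 0.767), and neither was p38 alpha, MAPK14 (log2 fold change 0.05, SE 0.07, edgeR adjusted p = 0.692). These last genes were chosen after their values were seen. CCNB1, which encodes cyclin B1, rose by 0.43 (SE 0.07, edgeR adjusted p = 0.00412), which limma on log2(FPKM + 1) did not call (adjusted p = 0.0666).

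**Figure D5:**
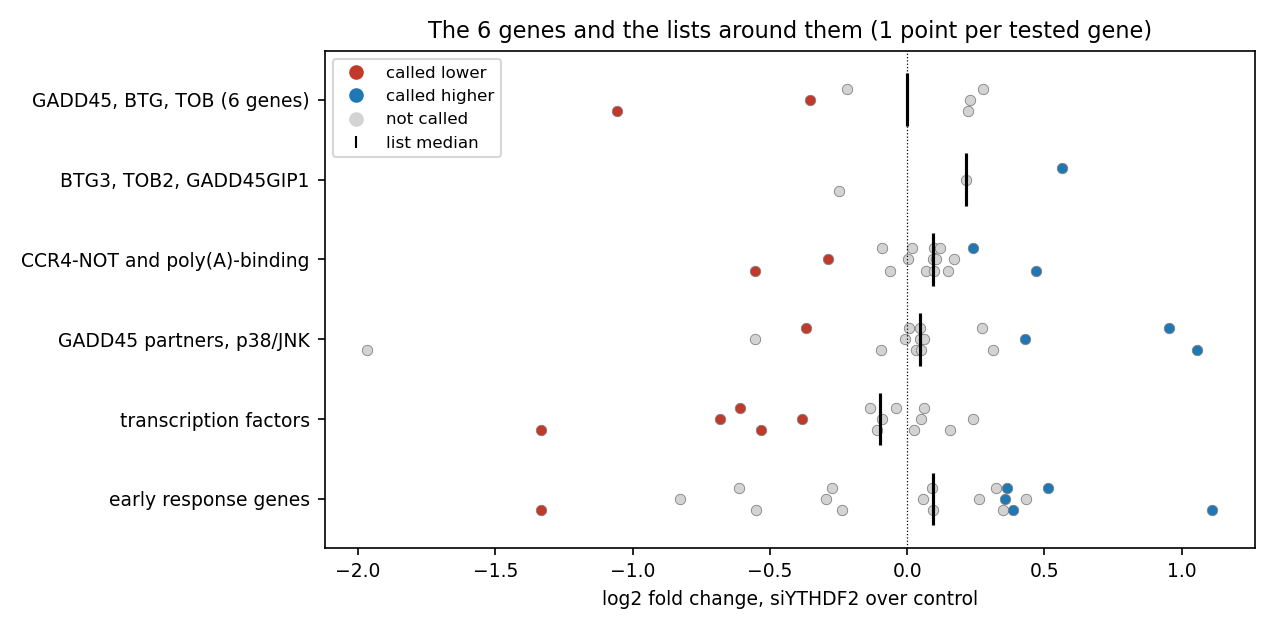
Log2 fold change of siYTHDF2 over control for each tested gene of the 6 growth-arrest genes and of the lists around them, with a bar at each list median. Called genes lie on both sides of 0 in the partner and early response lists, and the 5 called transcription factors lie below 0.

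Transcription factors known in other cells to act on these genes were lower or not called. Of 14 tested, 5 were lower and 0 higher in edgeR, also at an unadjusted p under 0.05 and in DESeq2, with a median log2 fold change of -0.10. Over all genes edgeR called 10.6% lower and 9.05% higher, and at an unadjusted p under 0.05 the shares were 16.9% and 16.1%. Without control replicate 2, edgeR called 1 of them higher. Limma on log2(FPKM + 1) called 2 lower without siYTHDF2 replicate 1 and 1 lower without control replicate 1 or control replicate 2. FOXO1, a forkhead factor that can induce GADD45A, fell to 75.4 and 72.0 CPM with siYTHDF2, against 120 and 116 CPM in the control (log2 fold change -0.68, SE 0.07, edgeR adjusted p = 0.000237). EGR1, an immediate early factor, fell to 11.2 and 9.90 CPM with siYTHDF2, against 30.7 and 22.5 CPM in the control (log2 fold change -1.33, SE 0.16, edgeR adjusted p = 0.000570). SMAD3, a mediator of TGF-beta signalling, which induces GADD45B, fell to 74.6 and 74.2 CPM with siYTHDF2, against 113 and 103 CPM in the control (log2 fold change -0.53, SE 0.07, edgeR adjusted p = 0.00137). The NF-kB genes NFKB1 (log2 fold change -0.11, edgeR adjusted p = 0.402) and RELA (log2 fold change 0.05, edgeR adjusted p = 0.680) were not called. Neither were FOXO3, SMAD2 and SMAD4. These uncalled genes were chosen after their values were seen. Whether any of the factors acted on the 6 genes here was not tested.

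GADD45B and BTG2 belong with the early response genes, whose mRNAs are short-lived. Of 19 such genes tested, 5 were higher, 1 lower and 13 not called, with a median log2 fold change of 0.10. In the whole comparison 9.05% of genes were called higher and 10.6% lower. The higher count was 1 in limma on log2(FPKM + 1), with all libraries or with any of them left out, and also on log2(FPKM + 0.1). The lower count was 3 with no filter on low counts and 2 in limma on log2(FPKM + 1) with all libraries. IER3, an immediate early survival gene, reached 95.3 and 67.2 CPM with siYTHDF2, against 37.3 and 37.9 CPM in the control (log2 fold change 1.11, SE 0.14, edgeR adjusted p = 0.000811). This call was lost without control replicate 1 (adjusted p = 0.125) or control replicate 2 (adjusted p = 0.116). KLF6, a zinc-finger factor, rose by 0.36 (SE 0.06, edgeR adjusted p = 0.00397), which limma on log2(FPKM + 1) did not call (adjusted p = 0.186). EGR1, described above, was the lower one. Among the genes named from these lists, CDKN1A and EGR1 kept their calls in all 15 other settings, whereas FOXO1, SMAD3, MAP3K5 and PRMT1 lost theirs only in limma on log2(FPKM + 1) with a library left out, in 2, 3, 4 and 4 of those 4 fits.

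The genes most like each growth-arrest gene over the 4 libraries were found by the distance between centred log2 CPM profiles, among genes with a mean of at least 5 CPM. GADD45B was closest to TCP11L2 (distance 0.0460), which had 6.11 and 7.13 CPM with siYTHDF2, against 13.8 and 15.3 CPM in the control, and next to ARL6IP4 (distance 0.0900). GADD45A was closest to AKR1C8 (distance 0.00878) and RCN3 (distance 0.0246), both lower by about the same amount, at log2 fold changes of -0.35 and -0.37. BTG1 was closest to MVP and EIF4A2, GADD45G to ZNF697 and CSF1, BTG2 to DPP9 and GYS1, and TOB1 to MTRF1L and ASTE1. Profiles over only 4 libraries can be close for many genes, and the likeness is given as a description.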

How the data were processed

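Per the file headers, the authors deposited 1 table with counts and FPKM per gene for each of the 4 libraries, beside gene positions, names and KEGG pathways. Per the labels' protocols, RNA was extracted with Trizol and made into TruSeq libraries; that protocol text names retinas, whereas the source and cell type labels name granulosa cells, and which is right was not settled. Bowtie 0.12.2 and a mouse build appear in the submitters' processing notes, and a mouse build does not match the pig gene identifiers of the table. No source used here states the read alignment, the counting or its strand setting beyond these names.

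Deposited counts were tested with edgeR 4.0.16 in R 4.3.3 (expression filter, TMM scaling, robust quasi-likelihood fit, group as the only term, two-sided). The Benjamini-Hochberg adjustment ran over all 15552 genes tested. Intervals come from each gene's SE and total degrees of freedom. These add the prior degrees of freedom, which the robust fit gains from all genes, to the residual ones. The test was tried on simulated counts. DESeq2 1.42.0 and limma 3.58.1 (trend, robust, on log2 of the deposited FPKM plus 1 or 0.1) served as alternatives, as did other scaling, no filter, no robust shrinkage, a replicate block and leaving out each library. Limma on FPKM without each library, and all settings for genes of the lists, were added after seeing the data.

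The 6 genes and the lists were chosen with earlier results of these data known. Named genes were YTHDF2, the 6 genes, up to 3 called genes per list with the smallest p and the 2 genes most alike per member. Relatives of the 6, marker genes, and direct partners or transcription factors whose choice after seeing values is stated, fall outside this rule. Replicate numbers came from the titles. Results on 1 gene of the transcription factor list are not reported here.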

Additional observations from a re-analysis of the deposited data

How the results depend on the processing

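Over 15 alternatives GADD45B stayed called lower, and each of GADD45A, GADD45B, GADD45G, BTG1 and TOB1 kept its direction in all of them. BTG2 had -0.013 instead of 0.28 in limma on log2(FPKM + 1) without siYTHDF2 replicate 2. GADD45A lost its call without siYTHDF2 replicate 2, and in limma on log2(FPKM + 1) when any library was left out; over the settings that leave out a library its log2 fold change ranged from -0.46 to -0.26, and the number of growth-arrest genes called lower from 1 to 2. In limma on log2(FPKM + 1) without siYTHDF2 replicate 1, siYTHDF2 replicate 2, control replicate 1 and control replicate 2, the log2 fold change of GADD45A was -0.42, -0.43, -0.46 and -0.39, with an adjusted p of 0.0881, 0.0578, 0.293 and 0.442. The cause was not tested. With 3 libraries, the lone library of a group is assumed to vary like the others.

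Over all genes, limma called 574 higher on log2(FPKM + 1) and 548 on log2(FPKM + 0.1), against 1408 in edgeR. Its lower calls were 1529 and 1463, against 1644 in edgeR. These fits used the deposited FPKM without further scaling between libraries, and their median log2 fold changes were -0.03 and -0.06. The part of the lower FPKM scale of siYTHDF2 replicate 1 in the lost higher calls was not tested. In edgeR, leaving out a library gave 864 (without siYTHDF2 replicate 1) to 1372 higher genes and 1234 to 1525 lower genes, against 1408 and 1644 with all libraries. Limma on log2(FPKM + 1) in the same order of libraries left out gave 177, 211, 149 and 185 higher genes and 340, 1234, 512 and 560 lower genes. The replicate number as a block gave 1020 higher and 1361 lower genes, and a log2 fold change of -1.06 for GADD45B and -0.36 for GADD45A and changed no call among the 6 genes. Deviations of same-numbered libraries from their group means correlated at -0.118 over genes, so the shared numbers do not show paired samples. The median log2 fold change of all genes lay between -0.09 and 0.02 in every setting. BTG2, with 298 to 415 counts per library, had the lowest count of the 6 genes.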

Other observations

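The table's KEGG annotation separates the 6 genes by family. GADD45A, GADD45B and GADD45G share annotation to FoxO signalling, MAPK signalling, cell cycle, apoptosis, NF-kappa B and cellular senescence, among others, and BTG1, BTG2 and TOB1 share RNA degradation. These pathways were looked up after the data were seen and are described without a test, beside 9.05% of all genes called higher and 10.6% called lower in edgeR. In FoxO signalling, with 101 tested genes, 19.8% were called higher and 21.8% lower. In cellular senescence, with 133 tested genes, the shares were 18.8% higher and 15.8% lower. Apoptosis had 15.9% higher and 13.3% lower among 113 genes. MAPK signalling had 12.7% higher and 12.3% lower among 236 genes, and NF-kappa B signalling 12.5% higher and 13.8% lower among 80 genes. The cell cycle pathway had 22 higher and 10 lower genes among 116 tested, with GADD45A and GADD45B among the 10. Its share of lower genes, 8.62%, was near that of all genes, whereas its share of higher genes, 19%, was above their 9.05%. RNA degradation had 13 higher and 4 lower genes among 75 tested (17.3% and 5.33%), with a median log2 fold change of 0.12. None of its BTG and TOB members was called in edgeR, although BTG1 had an unadjusted p under 0.05.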
